A study of Phyllostachys edulis with 2 samples.

Results

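The MADS-box transcription factors of Moso bamboo (Phyllostachys edulis) rhizome lateral buds were taken as the assembled transcripts whose protein description contains the word MADS. They were 22 of 148492 transcripts and fell in 10 of 85391 loci. Wild type buds were pooled within each of the stages compared, germination and early shoot, and each pool gave 1 RNA library. The buds were collected underground and without sheath hair. In all, 4481221 reads belong to the germination library and 7878826 to the early shoot library. Since each stage is 1 library, differences could not be checked against replicates and no p-values are given. Intervals are 95% Clopper-Pearson limits on how the reads were split between both libraries, and they cover counting error only. In whole buds, a lower share of cells of a type and less RNA per cell cannot be told apart.

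MADS-box genes encode transcription factors that bind DNA through the conserved MADS domain. The plant MIKC-type proteins add an intervening, a keratin-like and a C-terminal region and act as dimers or larger complexes. In flowers they set the identity of the organs, PISTILLATA being a class B gene of petals and stamens in Arabidopsis. Other members act in vegetative tissue. OsMADS55 of rice belongs to the Short Vegetative Phase (SVP) group, which delays flowering in Arabidopsis, and was described in rice as a negative regulator of brassinosteroid responses.

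The MADS transcripts were longer than most, with a median of 828 bp compared with 329 bp over all transcripts. Their 10 loci hold 95 transcripts, and the other 73 do not name MADS. The descriptions gave 12 different names. Wheat proteins were the best match of 15 transcripts in 7 loci, rice proteins of 3 transcripts in 3 loci, and a truncated MADS-box protein of the related bamboo Phyllostachys praecox of 4 transcripts in 1 locus. Locus_3123 stands under both wheat and rice, since it held transcripts matched to OsMADS55 of rice and others matched to TaAGL11 of wheat. Only 2 loci had a name that gives the clade. Locus_3123 was vegetative-type by OsMADS55, the match of 1 of its 4 MADS transcripts, and Locus_72216 was floral-type by a PISTILLATA-like match. The other 8 were left unclassed. Their names were TaAGL12, TaAGL18, TaAGL41, WM1B, WM32B, RMADS219, FDRMADS3 and the truncated protein. TaAGL stands for AGAMOUS-LIKE proteins of wheat, whose numbers are not those of Arabidopsis, and WM1B and WM32B are described as MIKC-type only. No further description named a MADS-domain protein without that word, since the 16 transcripts found by floral names were squamosa promoter-binding or APETALA2 proteins, which carry other DNA-binding domains.

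Levels between loci were compared per length, as RPKM summed over the MADS transcripts of each locus. The OsMADS55 locus was highest at both stages, with a summed RPKM of 93.6 in germination and 82.6 in early shoot. It held 56.7% of the 938 MADS reads in germination and 51.1% of the 1610 in early shoot. Only 1 of its 4 MADS transcripts matched OsMADS55, with an RPKM of 26.3 and 20.6, and the other 3 matched TaAGL11. In germination the OsMADS55 locus was followed by the TaAGL12 locus (26.9), the TaAGL41 locus (25.8) and the P. praecox locus (25.2). The counting intervals of these 3 levels overlapped. In early shoot the TaAGL41 locus (43.7) and the P. praecox locus (39.5) came next, also with overlapping intervals, while the TaAGL12 locus had a summed RPKM of 8.13 and came after the WM32B locus. The WM32B locus (15.5 and 14.6) and the TaAGL18 locus (8.67 and 8.09) lay below. The remaining 4 loci had fewer than 30 reads each on their MADS transcripts over both libraries. Their RPKM was at most 3.19 in germination and 5.32 in early shoot. Neighbours in the order had overlapping intervals from the TaAGL18 locus downwards in germination and from the TaAGL12 locus downwards in early shoot. The order was the same when reads were divided by the longest MADS transcript of each locus.

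**Figure D1:**
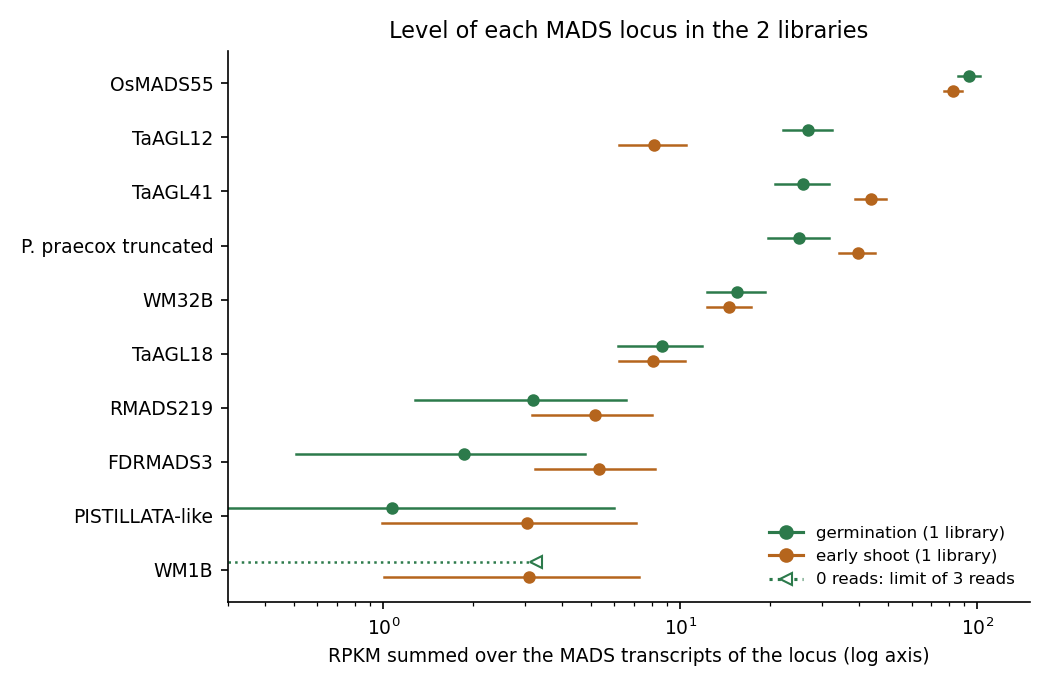
RPKM summed over the MADS transcripts of each of the 10 loci (log axis) in the germination library (green) and the early shoot library (brown). Lines are 95% Poisson counting intervals, lines that reach the left edge go on beyond it, and the open triangle is the level of 3 reads for a locus with 0 reads. The OsMADS55 locus is highest in both libraries, and the TaAGL12 locus goes from 26.9 to 8.13.

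The comparison of the stages asks which MADS-box genes were expressed more in germinating buds and which in early shoots. Reads were summed per locus, and log2 ratios of early shoot to germination were scaled by the totals of the tables, a factor of 1.76. A G-fold value was added as a cautious log2 ratio. It is the end nearest 0 of the range between the lower and upper 0.01 quantiles of the posterior log2 ratio, or 0 where that range includes 0. A locus was called when its G-fold value was beyond 1.0 in either direction and its summed RPKM was above 1.0 in both libraries, a cutoff that 9 of the 10 loci passed. Of these 9, 1 was called as higher in germination and 0 as higher in early shoot, where the plain log2 ratio with 1 read added would call 1, the FDRMADS3 locus. Among all loci above the cutoff, 3.59% were called in germination and 1.5% in early shoot, and 1 call in 9 loci is not a result about the family. Reads of all loci were summed over every transcript, and summed so, the MADS loci gave the same 1 and 0 calls. On single transcripts the result was the same, with 1 of 21 called in germination and 0 in early shoot, against 3.63% and 1.53% of all transcripts.

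The called locus was that of TaAGL12 (Locus_5301), whose MADS transcript of 937 bp fell from 113 reads in germination to 60 in early shoot, although the early shoot library was deeper. The level in early shoot was 3.31-fold lower (interval 2.40 to 4.61), a log2 ratio of -1.73 (interval -2.20 to -1.26), with a G-fold value of -1.20. Another 2 transcripts of the same locus have no protein match. One of them, of 846 bp, was called as well, with 157 and 63 reads and a log2 ratio of -2.13 (interval -2.58 to -1.70). The other, of 580 bp, had 50 and 74 reads and a log2 ratio of -0.25 (interval -0.79 to 0.30). Both long transcripts of the locus thus stood lower in early shoot, and the interval of the short one overlapped neither of theirs. The whole locus, with 320 and 197 reads, had a log2 ratio of -1.51 (interval -1.78 to -1.25) and was also called. With a threshold of 2.0 in place of 1.0 the locus was not called.

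The OsMADS55 locus (Locus_3123), the only one named as vegetative-type, differed little between the stages on its MADS transcripts. They had 532 reads at germination and 823 at early shoot, a log2 ratio of -0.18 (interval -0.34 to -0.02). Its G-fold value was 0. After scaling by the upper quartile the ratio was -0.14 and the interval, from -0.30 to 0.02, reached past 0. The transcript matched to OsMADS55 itself (873 bp) had 103 and 142 reads and a log2 ratio of -0.35 (interval -0.73 to 0.03). The 3 transcripts matched to TaAGL11 (991, 1749 and 1417 bp) had 429 and 681 reads together and a log2 ratio of -0.15 (interval -0.32 to 0.03). Ratios of the 4 transcripts ranged from -0.35 to 0.07, and the intervals of all 6 pairs overlapped.

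Other transcripts of the same locus had other ratios. Locus_3123 has 63 transcripts, and 5 of them match an unknown protein of maize while 54 have no match. On the 5 maize-matched transcripts 568 reads were counted at germination and 1681 at early shoot, a log2 ratio of 0.75 (interval 0.61 to 0.89). One of these, of 2405 bp, was called in early shoot with 80 and 407 reads and a log2 ratio of 1.53. The 54 transcripts without a match had 404 and 638 reads and a log2 ratio of -0.15 (interval -0.34 to 0.03), like that of the MADS transcripts. Summed over the whole locus, 1504 and 3142 reads gave a log2 ratio of 0.25 (interval 0.16 to 0.34), which is opposite in sign to the value of the MADS transcripts. The MADS transcripts held 35.4% of the reads of the locus in germination (interval 32.95% to 37.8%) and 26.2% in early shoot (from 24.7% to 27.8%). Whether the locus is 1 gene, several genes or an assembly of fused transcripts was not tested, and the value of this member is that of its MADS transcripts only.

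**Figure D2:**
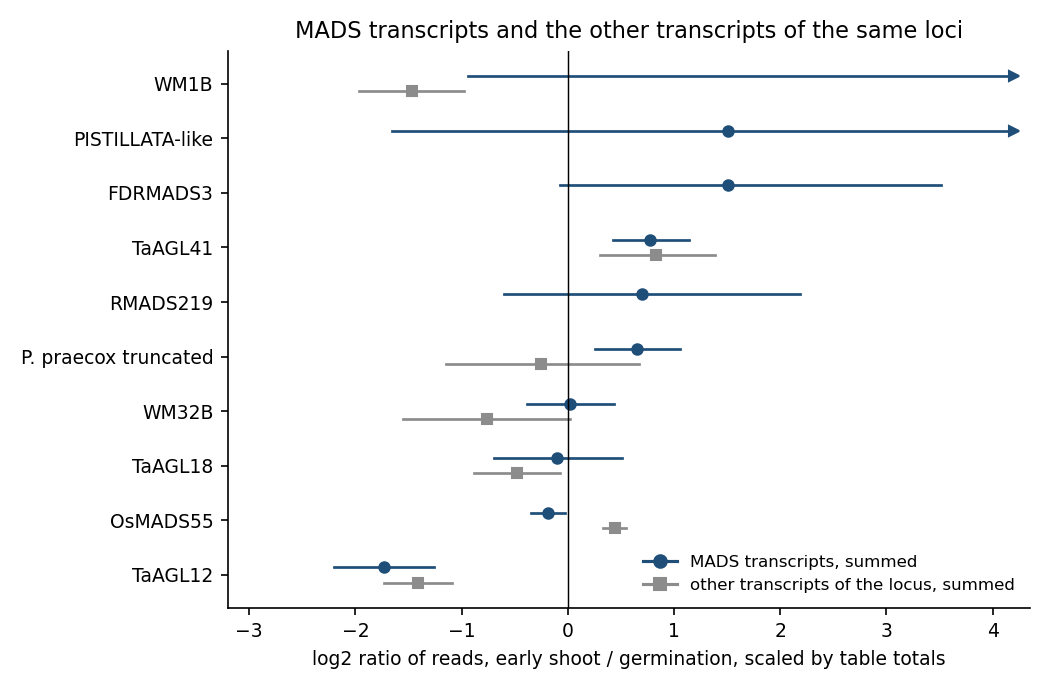
Log2 ratio of reads, early shoot over germination, scaled by the table totals, for the MADS transcripts of each locus (blue) and for its other transcripts (grey), with exact 95% intervals. Arrows mark intervals that run past the axis, and the WM1B locus has no ratio because its MADS transcript had 0 reads in germination. The TaAGL12 locus lies at -1.73 and the TaAGL41 locus at 0.78, and in the OsMADS55 locus the MADS transcripts (-0.18) and the others (0.44) lie on both sides of 0.

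Both loci whose intervals lay above 0 were those of TaAGL41 and of the P. praecox protein. The TaAGL41 locus (Locus_19280) had 90 reads at germination and 271 at early shoot on its MADS transcripts, a level 1.71-fold higher in early shoot (interval 1.34 to 2.199) with a G-fold value of 0.37, which is below the threshold for a call. Its 4 MADS transcripts had log2 ratios from 0.36 to 1.19. The transcript matched to TaAGL41 (649 bp) had 12 and 27 reads, and the 3 matched to a putative MADS box-like protein of wheat (1 of 775 bp and 2 of 828 bp) had 78 and 244 reads together. The other 4 transcripts of the locus, with 39 and 122 reads, had a log2 ratio of 0.83 (interval 0.30 to 1.39), so that both the MADS transcripts and the rest of this locus had intervals above 0.

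The locus matched to the truncated MADS-box protein of P. praecox (Locus_12439) had 73 and 201 reads, a level 1.57-fold higher in early shoot (interval 1.19 to 2.08) with a G-fold value of 0.19. Its 4 MADS transcripts, of 600 to 777 bp, had log2 ratios from 0.37 to 0.92 with overlapping intervals. The most abundant of them, of 600 bp, had 34 and 95 reads. Its other 2 transcripts had 19 and 28 reads and a log2 ratio of -0.25 (interval -1.15 to 0.67), too few to tell a difference. Over all loci above the cutoff, the interval lay above 0 in 12.2% and below 0 in 13%. Of the 9 MADS loci it lay above 0 in 2 and below 0 in 2, the TaAGL12 and OsMADS55 loci, and on both sides of 0 in 5. The MADS counts rest on MADS transcripts only, the shares over all loci on every transcript. Summed over every transcript, the OsMADS55 locus had an interval above 0 (0.16 to 0.34). The TaAGL18 (-0.69 to -0.02) and WM1B (-1.83 to -0.87) loci then had intervals below 0, while the TaAGL41, P. praecox and TaAGL12 loci kept their sides.

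The WM32B locus (Locus_18067) was close to 0 as a sum, with 79 and 141 reads and a log2 ratio of 0.02 (interval -0.39 to 0.44), but its transcripts differed. The transcript of 1521 bp had 25 reads at germination and 71 at early shoot, a log2 ratio of 0.69 (interval 0.02 to 1.41). The transcript of 998 bp had 22 and 15 reads, a log2 ratio of -1.37 (interval -2.42 to -0.35). Their intervals did not overlap, which was the case for 1 of the 6 pairs in this locus and for none of the 18 pairs in the other 3 loci with several MADS transcripts. The 2 further transcripts had 16 and 26 reads (1089 bp) and 16 and 29 reads (978 bp). How reads were divided among the transcripts of a locus is not stated with the tables, so the split between transcripts is uncertain. If a read could count on more than 1 transcript, the sums and their intervals would be affected as well. This was not tested. With only the most abundant MADS transcript, the value of the locus was 0.69.

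**Figure D3:**
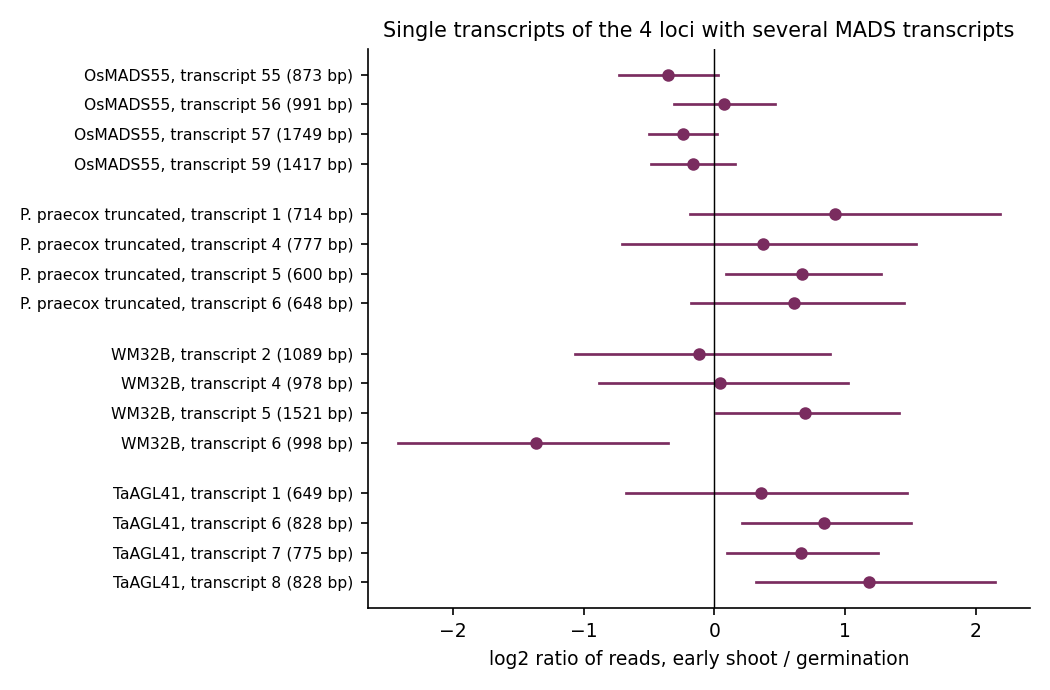
Log2 ratio of reads, early shoot over germination, for each MADS transcript of the 4 loci with more than 1, with exact 95% intervals. Points of the TaAGL41 and P. praecox loci all lie above 0, those of the OsMADS55 locus lie from -0.35 to 0.07, and those of the WM32B locus spread from -1.37 to 0.69.

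The TaAGL18 locus (Locus_6488) had 39 and 64 reads on its MADS transcript of 1004 bp, a log2 ratio of -0.10 (interval -0.70 to 0.51). Its other 2 transcripts, without a match, had 92 and 116 reads and a log2 ratio of -0.48 (interval -0.89 to -0.07). The interval of the MADS transcript, which covers counting error only, did not reach a log2 ratio of 1 in either direction. The 2 parts of the locus had overlapping intervals.

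The 4 remaining loci had few reads on their MADS transcripts, all with a higher measured level in early shoot. For the WM1B locus this holds for the MADS transcript only. Over every transcript that locus had 91 and 63 reads and a log2 ratio of -1.34 (interval -1.83 to -0.87). FDRMADS3 (Locus_45058, 477 bp) had 4 reads at germination and 20 at early shoot, a ratio of 2.84 (interval 0.95 to 11.4). RMADS219 (Locus_23846, 490 bp) had 7 and 20 reads, a ratio of 1.63 (interval 0.66 to 4.55). The PISTILLATA-like transcript (Locus_72216, 208 bp), the only floral-type member by name, had 1 and 5 reads, a ratio of 2.84 (interval 0.32 to 135). A difference was not detectable at this depth in any of these 3 loci. They have no other transcripts.

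WM1B (Locus_10267, 205 bp) had 0 reads at germination and 5 at early shoot. A count of 0 allows up to 3 reads, which is an RPKM of 3.27 on this short transcript, above the 3.10 measured in early shoot, so no fold is given. The same locus has a transcript of 761 bp without a match, with 91 and 58 reads and a log2 ratio of -1.46 (interval -1.96 to -0.97). Its G-fold value of -0.90 did not reach the threshold. The MADS transcript took 0 of the 91 reads of the locus in germination, which allows a share of up to 3.30%, and 5 of the 63 in early shoot (7.94%, interval 2.63% to 17.6%). Most of what was counted at this locus therefore lay on a transcript that the rule did not take.

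**Figure D4:**
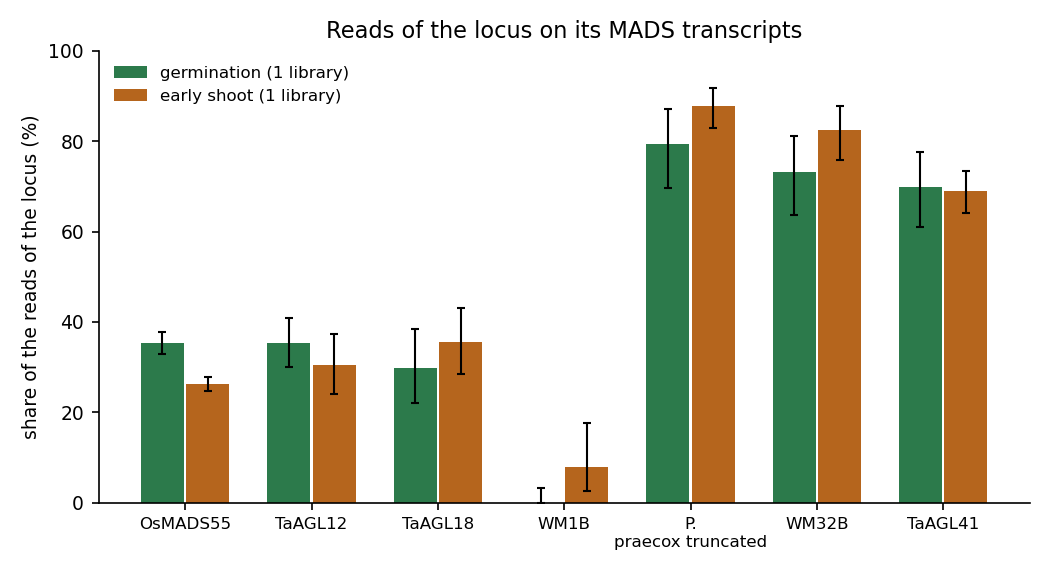
Share of the reads of a locus that lay on its MADS transcripts, in the 7 loci that also have other transcripts, for germination (green) and early shoot (brown). Error bars are exact 95% binomial intervals, and for the 0 of 91 reads of WM1B the bar ends at the share of 3 reads. The intervals of both stages lie apart in the OsMADS55 locus (35.4% and 26.2%) and overlap in each of the other 6 loci. Overlap does not show that the shares of those loci are equal.

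Taken over the family, 938 MADS reads at germination and 1610 at early shoot were 0.0209% and 0.0204% of the reads of their tables, a log2 ratio of -0.03 (interval -0.15 to 0.08). The sum depended on the OsMADS55 and TaAGL12 loci. Without OsMADS55 it was 0.14 (interval -0.03 to 0.32), and without both, a choice made after the values were seen, 293 and 727 reads gave 0.50 (interval 0.30 to 0.70). OsMADS55 and TaAGL12 are the loci whose intervals lay below 0, so the rise follows from the choice. Among the 9 loci above the cutoff, the log2 ratio was above 0 in 6 and below 0 in 3, with a median of 0.65. Of these 9, 5 had counting intervals on both sides of 0. Over all loci above the cutoff the median was 0.00 and 50.1% lay above 0. Those loci were summed over every transcript, the MADS loci over their MADS transcripts only. The medians of 0.65 and 0.00 are therefore not on the same measure. Summed over every transcript, the OsMADS55 locus moved above 0 (0.25), the WM32B locus moved below 0 (-0.15), and the WM1B locus had -1.34. With the median ratio of the counts as scaling the WM32B locus changed sign, to -0.01. Vegetative-type and floral-type members can only be set side by side, as 532 and 823 reads against 1 and 5 reads, since each class holds a single locus and the interval of the floral-type one spans that of the other. Of the vegetative-type reads, 103 and 142 lay on the transcript matched to OsMADS55 and the rest on those matched to TaAGL11.

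Other regulators of flowering and of the shoot meristem were taken from a list of protein names. It matched 23 loci without the word MADS, 22 of them above the cutoff. Of these, 2 were called in early shoot, where 1.5% of all loci were, and 0 in germination, where 3.59% were. The median log2 ratio was 0.13, against 0.00 over all loci, with 11 loci on each side of 0. Loci of this list and of the marker names below were summed over their matched transcripts only, those of the background over every transcript. One called locus was squamosa promoter-binding-like protein 17 (Locus_5293), of a family that acts in phase change and panicle branching in rice and is controlled there by the microRNA miR156. It had 90 reads at germination and 534 at early shoot, a log2 ratio of 1.75 (interval 1.43 to 2.09). The squamosa promoter-binding-like proteins 12, 15 and 19 were not called and did not share a direction. Proteins 12 and 15 had log2 ratios of 0.615 and 0.51. Protein 19 (Locus_9945) had 70 and 58 reads and a log2 ratio of -1.09 (interval -1.61 to -0.56). The other called locus was the light receptor phytochrome B (Locus_2511), with 175 and 858 reads and a log2 ratio of 1.48 (interval 1.24 to 1.72). The locus with the most reads was a phytochrome matched to rice (Locus_821), with 1877 and 2792 reads and a log2 ratio of -0.24 (interval -0.33 to -0.16).

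Marker names of tissues were read beside these values, and their calls stand beside the same 1.5% of all loci called in early shoot and 3.59% in germination. Of the 4 loci of knotted-type homeobox proteins none was called, but they did not move together. The one labelled OSH1 (Locus_8419), a marker of the shoot meristem in rice, had 3 matched transcripts. They had 283 and 943 reads and a log2 ratio of 0.92 (interval 0.73 to 1.12). The flowering and meristem names matched only 2 transcripts of this locus, with 218 and 685 reads and a log2 ratio of 0.84 (interval 0.62 to 1.06). Whether the third matches OSH1 was not tested. The locus matched to knotted 1 of barley had 163 and 299 reads and a log2 ratio of 0.06 (interval -0.22 to 0.35). The other two match knotted-1-like 13 and knotted-1-like 2, class II proteins that are not restricted to the meristem, with log2 ratios of -0.49 (interval -0.71 to -0.27) and -1.002 (interval -1.17 to -0.83). Of the 4 loci found by names of dividing cells, only cyclin-B2-1, a cyclin of mitosis, marks division itself. It was called in early shoot, with 18 and 227 reads and a log2 ratio of 2.84 (interval 2.15 to 3.62). The others, cyclin-C and the cyclin-dependent kinases D-1 and C-3, had log2 ratios of -0.25, -0.31 and 0.55. Of 5 loci with names from pollen or anther, with 179 and 613 reads, 1 was called in early shoot, a match to the pollen-specific protein SF3 (47 and 281 reads), and the log2 ratios of the 5 ranged from -0.81 to 1.77. The 12 loci of photosystem, chlorophyll-binding and RuBisCO small chain proteins had 2542 and 4106 reads and no call, and the root names matched 0 loci. The part of these differences in the MADS values was not tested.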

How the data were processed

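The deposited tables, 1 per library, hold raw counts made by the authors, that is the reads on each transcript of an assembly. The deposited RPKM was calculated by the authors from the count, the length and the table total, and recalculation gave every value to within 0.0483. TopHat2 2.0.8b and Cufflinks 2.2.1 are named in the submitters' processing notes, whereas the transcript names are of the kind that a de novo assembly gives. The assembler and the counting program behind the tables are not given in the sources used here. The study describes a protein search against rice, which does not account for the wheat, maize and bamboo matches in the tables, and the search that gave those is not given in the sources used here.

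Tables were read with pandas 2.3.3, NumPy 2.4.6 and SciPy 1.17.1 under Python 3.11.15. Members were found by the word MADS in the description, and reads were summed over the MADS transcripts of each locus. G-fold values imitate those of Gfold, the program of the study, from a beta posterior with 1 added to each count. Gfold itself was not run, so its values may differ. The calculation was tested on simulated Poisson counts, with planted changes and interval coverage checked only in loci with many reads. The test does not cover planted changes in loci with few reads or the spread between rhizomes. Every MADS locus is named, and of the list of flowering and meristem names each called locus and the one with most reads. Further squamosa promoter-binding-like loci are given beside the called one. Names of species in brackets were left out of the name search. A 0.05 quantile, other scalings (among them TMM of edgeR 4.0.16 under R 4.3.3), other cutoffs and other sums per locus were alternatives. Members and lists were chosen with earlier results of these data known. The totals of the tables were used for scaling because the median ratio, 1.8, takes few values. No sequences are in the tables.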

Additional observations from a re-analysis of the deposited data

How the results depend on the processing

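Of 157 alternative values, 146 stayed within the counting interval or within 1.5 times the count, and no called value changed sign. Many could hardly move, so this share says little about how firm the values are. The scalings shifted log2 ratios by at most 0.05, 3 loci have 1 transcript in all, and each class repeats 1 locus. With 1 read added to each count the PISTILLATA-like value went from 1.51 to 0.77 and still lay within its wide interval. The log2 ratio of all MADS reads moved from -0.03 to 0.14 without the OsMADS55 locus and to 0.50 without the OsMADS55 and TaAGL12 loci. These are the loci whose intervals lay below 0, so the rise follows from the choice. The vegetative-type value of -0.18 moved to 0.25 with all transcripts of the locus and to -0.36 with the TaAGL12 locus counted as vegetative-type, both by construction from other reads. With a threshold of 2.0, 0 MADS loci and 0 MADS transcripts were called in germination. The plain log2 ratio with 1 read added called 1 MADS locus in early shoot, 2 MADS transcripts in germination and 2 in early shoot. Among single loci, 79 of 81 values stayed, and the exceptions were the OsMADS55 locus (0.25 with all transcripts) and the WM32B locus (0.69 with its most abundant transcript). Leaving out the most abundant locus of each class, and moving APETALA1-like members between classes, were not run, because each class holds 1 locus and no description names such a member. For WM1B no alternative was run, as 0 reads in germination give no ratio. No paired analysis was possible because each stage has 1 library.

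Depth limits the 4 loci with fewer than 30 reads on their MADS transcripts, whose intervals all include 0. The intervals leave out the spread between rhizomes, which was not measured here, and the division of reads among the transcripts of a locus.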
